A study of Mus musculus with 143 samples.

Results

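The nuclear genes of the mitochondrial respiratory chain and ATP synthase were taken from an RNA-seq study of mouse striatum. Members were the protein-coding genes whose symbol begins with Ndufa, Ndufb, Ndufc, Ndufs or Ndufv, with Uqcr, with Cox4 to Cox8 or with Atp5, together with Sdha, Sdhb, Sdhc and Sdhd. This rule gave 93 members among the 41128 mouse genes of the count table, and 11 processed pseudogenes whose symbols match the same pattern were left out. By complex, 44 members belong to complex I, of which 8 are Ndufaf assembly factors, 4 to complex II, 8 to complex III, 20 to complex IV and 17 to complex V. The study compared zQ175 mice, which carry an expanded CAG repeat knocked into the mouse huntingtin gene, with wild-type (WT) mice. Animals were left untreated, given a non-targeting siRNA (NTC) or given HTT-10150, an siRNA directed at Htt. Under the strategy named 2[4]6 the animals were dosed at 2 months of age and the striatum was taken at 6 months. Under 6[4]10 they were dosed at 6 months, and under 2+6[8]10 at 2 and again at 6 months, with the striatum taken at 10 months in both. Untreated animals of each strategy had the same age at collection as the treated ones. Each of the 18 groups held 8 mice, 4 of each sex, except WT HTT-10150 in 2+6[8]10 with 2 females and 5 males, which made 143 libraries, each from a separate mouse. The labels used here give no background strain, dose or route, and the tissue is a mixture of cell types, so fewer cells of a type and less RNA per cell cannot be told apart.

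The respiratory chain passes electrons from NADH through complex I, or from succinate through complex II, to ubiquinone, then through complex III and cytochrome c to complex IV, where oxygen is reduced. Complexes I, III and IV pump protons across the inner mitochondrial membrane, and complex V, the ATP synthase, lets them return while making ATP. Most subunits are encoded in the nucleus and a small set in mitochondrial DNA. The striatum is the brain region most affected in Huntington's disease, and blocking complex II with toxins produces striatal lesions in animals, which is why these complexes are often examined there.

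Total counts per library ran from 12551675 to 29194369, and the middle library held 18850267. Levels are CPM, each gene's count relative to its library's total, scaled by the trimmed mean of M values, and fold changes are log2 values from edgeR's quasi-likelihood test with Benjamini-Hochberg adjustment over all genes tested. A member was called when its adjusted p was under 0.05. The test was run on 91 members in 2[4]6 and 2+6[8]10 and on 90 in 6[4]10, since Cox7b2 and Cox8c, and in 6[4]10 also Cox8b, had too few counts. Htt itself had group medians of 155.5 to 160.8 CPM in untreated WT and of 125.4 to 134.5 CPM in untreated zQ175. In zQ175 its median with HTT-10150 against NTC was 105.6 against 129.0 CPM in 6[4]10 and 108.4 against 138.1 CPM in 2+6[8]10, but 127.6 against 127.1 CPM in 2[4]6, so that the zQ175 group labelled HTT-10150 in 2[4]6 did not have less Htt than its control. In WT the medians with HTT-10150 and NTC were 131.4 and 154.1 CPM in 2[4]6, 134.9 and 158.0 CPM in 6[4]10 and 125.4 and 162.4 CPM in 2+6[8]10. Medium spiny neuron markers, the defining genes of striatal projection neurons, were abundant, with a median summed level of 11119 CPM in untreated WT at 6 months. In zQ175 11 of these 12 markers were called lower in each strategy among untreated animals, against 17.2%, 17% and 18.3% of all genes in 2[4]6, 6[4]10 and 2+6[8]10. A single library, the untreated zQ175 male 2 of 6[4]10, stood apart: its members summed to 12340 CPM against 10350 CPM in the next highest of its group, and the values of its group are given with it unless it is said to be left out.

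The upstream sequences of 4 genes are shown because of their role below: Atp5g1 and Ndufs3 were called in all 9 comparisons of genotype, Ndufb6 was called in all 3 untreated comparisons, and Cox6a1 is the most abundant member per length whose promoter holds a match to the NRF1 motif. All 4 genes lie on the minus strand, and the sequences run 5′ to 3′ towards the gene, from RefSeq on GRCm38.p6. Bases that fall in an annotated exon are not printed. NRF1 and the ETS factor GABP are transcription factors known to bind promoters of respiratory chain genes. Capitals mark a match on either strand to the NRF1 motif, searched as GCGCA, any base and GCGC, or to the ETS motif CCGGAAG.
Atp5g1, chr11:96075671-96075881: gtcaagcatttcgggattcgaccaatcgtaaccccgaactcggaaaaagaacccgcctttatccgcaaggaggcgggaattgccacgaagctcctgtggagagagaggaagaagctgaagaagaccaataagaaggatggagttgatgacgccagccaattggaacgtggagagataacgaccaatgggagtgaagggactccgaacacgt
Ndufs3, chr2:90904910-90904971: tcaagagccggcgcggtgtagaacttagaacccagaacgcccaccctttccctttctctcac
Ndufb6, chr4:40279422-40279671: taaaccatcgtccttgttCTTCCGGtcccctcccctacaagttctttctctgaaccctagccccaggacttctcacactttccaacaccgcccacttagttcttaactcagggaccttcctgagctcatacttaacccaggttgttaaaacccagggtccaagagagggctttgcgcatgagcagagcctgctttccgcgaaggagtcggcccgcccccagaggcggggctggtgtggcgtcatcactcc
Cox6a1, chr5:115348982-115349129: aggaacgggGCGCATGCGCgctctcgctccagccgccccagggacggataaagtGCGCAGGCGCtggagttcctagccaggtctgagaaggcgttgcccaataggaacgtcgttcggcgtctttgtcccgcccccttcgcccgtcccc

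The printed stretch of Atp5g1 held neither motif. Cox6a1 held 2 NRF1 matches, the nearer of which begins 117 bases before the start of the gene. It had 1 ETS match as well, which lies outside the printed stretch. Ndufb6 held 1 ETS match, which begins 232 bases before its start. Ndufs3 also had 1 ETS match, but it lies in the 188 bases nearest the start, which fall in annotated exons and are not printed. Over windows of 300 bases around the start of the gene, 76 of the 93 members had a RefSeq promoter. The NRF1 motif was found in 19 of these 76 (25%), against 1402 of 27025 genes with such a window (5.19%). The ETS motif was found in 18 of the 76 (23.68%), against 2683 of all genes (9.93%). By complex, NRF1 matches were in 9 of 39 promoters of complex I, 2 of 3 of complex II, 1 of 5 of complex III, 1 of 14 of complex IV and 6 of 15 of complex V. A match of letters is a description and not a measured binding site.

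Per length, in TPM (a count per transcript length, scaled to the same sum in each library) over all 143 libraries, the members spanned from 0 to over 1000. The highest was Cox4i1, which encodes a nuclear subunit of complex IV, at 1299 ± 97.5 TPM (SD, n = 143). Next was Atp5b, the catalytic beta subunit of ATP synthase, at 1244 ± 80.6 TPM, then Cox6a1 at 1100 ± 99.6 TPM. Atp5a1, the alpha subunit, was at 819.8 ± 40.7 TPM. The top members of the other complexes were lower: Uqcr11 of complex III at 358.2 ± 28.3, Ndufb9 of complex I at 348.6 ± 19.3 and Sdha, the flavoprotein of complex II, at 334.9 ± 22.6 TPM. Among the tissue-restricted isoforms of complex IV, Cox6a2 had 13.79, Cox6b2 10.37, Cox4i2 5.86, Ndufa4l2 4.83, Cox7a1 3.51 and Cox8b 2.81 TPM. Their widespread counterparts were far higher, with Cox6b1 at 487.1, Ndufa4 at 587.7, Cox7a2 at 210.4 and Cox8a at 933.6 TPM. Cox7b2 was at 0.52 TPM, and Cox8c had no count in any library. A count of 0 in a single library allows up to 3 counts there, and 0 in all 143 libraries allows fewer per library.

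The summed level of each complex differed little between the 18 groups. For complex I the group medians ranged from 2553 CPM in untreated zQ175 of 2+6[8]10 to 2825 CPM in WT NTC of 2[4]6, and the libraries of these groups overlapped. Complex II group medians ranged from 628.8 CPM in WT NTC of 2+6[8]10 to 685.1 CPM in untreated zQ175 of 2[4]6. Complex III spanned 770.0 to 836.6 CPM, complex IV 1937 to 2119 CPM and complex V 3421 to 3743 CPM, with the highest median of each in WT NTC of 2[4]6. Of 45 pairs of genotype groups (5 complexes in 9 pairs), 43 overlapped, and the 2 that did not were both of complex II in 6[4]10. The sum of complex II is mostly Sdha, which averaged 427.7 CPM over all libraries. Sdhb, Sdhc and Sdhd averaged 94.8, 74.1 and 59.9 CPM. For single genes, 8.83% of all tested did not overlap between the untreated groups of 6[4]10 and 9.33% between those given HTT-10150. In untreated 6[4]10 the summed level of complex II in WT had a lowest, median and highest library of 614.3, 635.6 and 652.7 CPM, and in zQ175 of 657.1, 675.4 and 733.6 CPM. These 2 groups did not overlap, also without the library that stands apart, since the other zQ175 libraries reached 682.6 CPM at most and 657.1 CPM at least. With HTT-10150 in 6[4]10 the values were 607.1, 634.1 and 648.0 CPM in WT against 653.5, 665.7 and 679.2 CPM in zQ175, again without overlap, while with NTC they were 618.6, 640.3 and 657.0 CPM against 631.4, 664.8 and 696.1 CPM, which overlap. In untreated 2+6[8]10 the values were 603.2, 634.3 and 665.1 CPM in WT against 630.0, 662.7 and 682.6 CPM in zQ175, which overlap, as do those of 2[4]6. These sums carry no test.

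**Figure D1:**
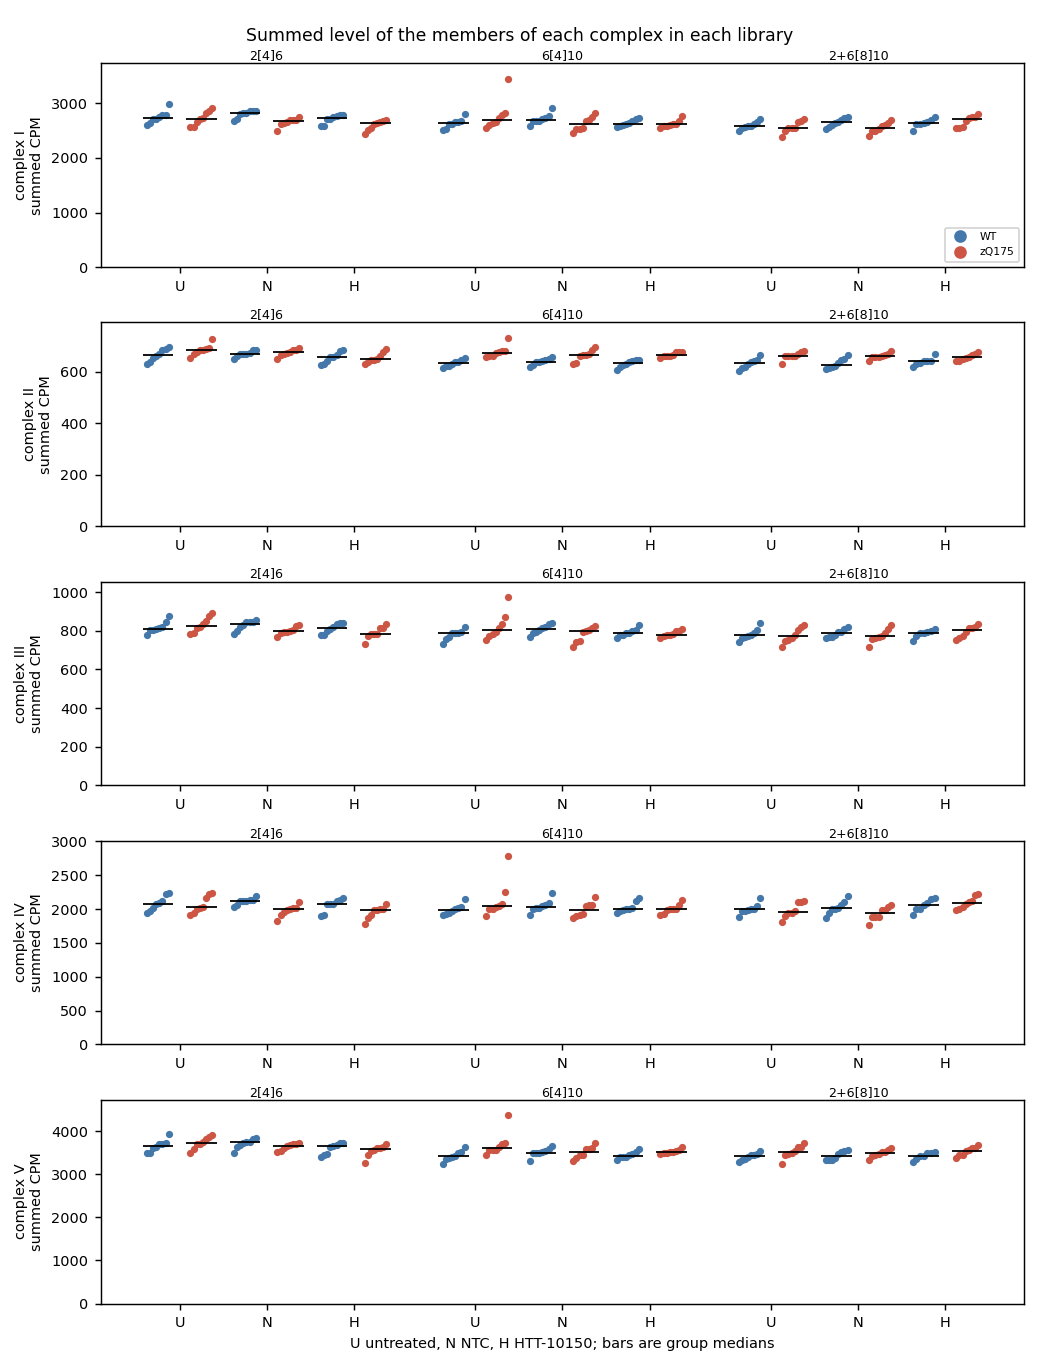
Summed CPM of the members of each complex (vertical axis, CPM) in every library, by strategy, treatment and genotype; points are libraries ordered by value within a group and bars are group medians. The single high point in each panel of 6[4]10 is the untreated zQ175 male 2, at 3455 CPM for complex I and 4384 CPM for complex V; the genotypes overlap in every pair of groups except for complex II in untreated and in HTT-10150 6[4]10.

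Genotype was compared in 9 sets of separate animals, 3 treatments in each of 3 strategies. Only Atp5g1 rose in zQ175 in all 9 comparisons, and only Ndufs3 fell in all 9. These are 1 of 90 members (1.11%) in each direction, against 781 of 15431 genes (5.06%) higher and 1162 (7.53%) lower in all 9. Another 18 of the 90 members (20%) were never called, against 26.5% of all genes. No member was called in both directions, against 1.56% of all genes. With so small a share, finding none among 90 members does not set them apart from other genes. Among untreated animals alone, Atp5g1 and Ndufb6 were higher and Ndufs3 and Cox4i2 lower in all 3 strategies, that is 2 members each way, against 1257 and 1559 of the 15431 genes. Most members moved by less than 0.2 on the log2 scale, and their direction as a group was not the same in the 9 comparisons.

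**Figure D2:**
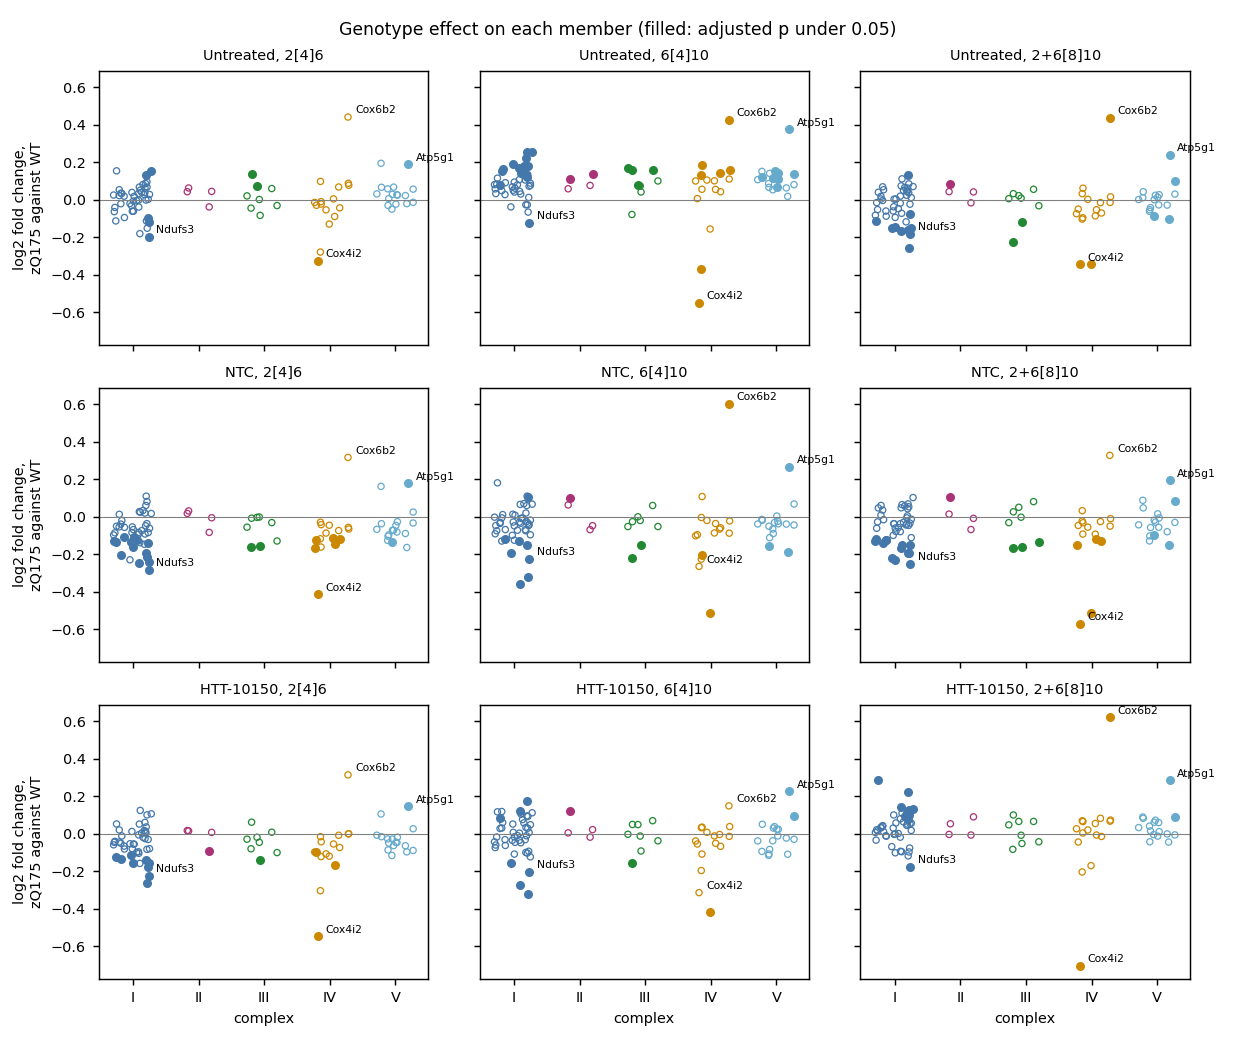
Log2 fold change of zQ175 against WT (vertical axis) for each member tested except Cox7a1 and Cox8b, which are not drawn, by complex (horizontal axis), in 9 panels for 3 treatments and 3 strategies. Filled points have an adjusted p under 0.05 in edgeR's quasi-likelihood test. Counting members not drawn, most of untreated 6[4]10 were above 0 (81 of 90) and most of NTC 2[4]6 below 0 (75 of 91). Atp5g1 is above 0 and Ndufs3 below 0 in each panel.

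In untreated 2[4]6, at 6 months of age, few members differed by genotype. Of 91 tested, 5 were higher and 4 lower in zQ175, against 32.6% of all genes called (15.3% higher and 17.2% lower). The members' median was 0.02, against 0.00 over all genes. Besides Atp5g1, the higher members were Ndufc2 (0.16) and Ndufb6 (0.13), accessory subunits of complex I, Uqcrh (0.14), the hinge protein of complex III, and Uqcrc2 (0.07), a core protein of complex III. The lower ones were Cox4i2 (-0.33), Ndufs3 (-0.20), Ndufa1 (-0.12) and Ndufb10 (-0.10), the last 2 being accessory subunits of complex I. Ndufc2 had a lowest, median and highest library of 38.51, 42.08 and 46.86 CPM in WT and of 40.98, 48.33 and 50.62 CPM in zQ175, so that the groups overlapped. These counts moved with the analysis: leaving out each replicate number in turn gave 1 to 5 higher and 1 to 2 lower, the replicate block 8 and 9, and the fit with each library's slopes of gene level on transcript length and GC content, described further down, 6 higher and 18 lower.

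In untreated 6[4]10, at 10 months, many members of every complex were higher in zQ175. Of 90 tested, 34 were higher and 3 lower, against 36.1% of all genes called (19.2% higher and 17% lower). The median of the members was 0.09 and that of all genes 0.01. Complex V had 8 of 17 members called higher and all 17 above 0. Complex I had 15 higher and 1 lower of 44, complex II 2 higher of 4, complex III 4 higher of 8, and complex IV 5 higher and 2 lower of 17. The largest increases besides Cox6b2 and Atp5g1 were of Ndufb6 (0.26) and Ndufc2 (0.25). Among core subunits of complex I, Ndufv1 (0.12), which binds NADH and flavin, was higher and Ndufs3 lower, and Ndufs1 (0.07), Ndufs7 (0.03), Ndufs8 (0.08) and Ndufv2 (0.07) did not pass. Sdha (0.11), Uqcrfs1 (0.16), the Rieske iron-sulfur protein of complex III, Atp5a1 (0.07) and Atp5b (0.14) were higher, and so was Cox5a (0.13), a nuclear subunit of complex IV. Sdhb (0.08), Uqcrc1 (0.07) and Cox4i1 (0.11) did not pass, with adjusted p of 0.133, 0.0883 and 0.0985. Without the library that stands apart, 17 members were higher and 4 lower, the median was 0.04, and 33.3% of all genes were called. Of the 37 members called with it, 20 were then still called. Sdha (0.10), Uqcrfs1 (0.12), Atp5b (0.11), Ndufb6 (0.18) and Ndufc2 (0.19) stayed among them, and Ndufv1 (0.07), Atp5a1 (0.05) and Cox5a (0.07) did not. Leaving out each replicate number gave 11 to 39 higher. With the slopes on length and GC content in the fit, 8 members were higher and 9 lower with a median of -0.01. The mean slope on length was -0.025 ± 0.058 (SD, n = 8) in these zQ175 libraries and 0.012 ± 0.020 (SD, n = 8) in WT, and its part in the result was not tested beyond that fit.

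At the same age in untreated 2+6[8]10, more members were lower than higher. Of 91 tested, 5 were higher and 15 lower, against 35.4% of all genes called (17.1% higher and 18.3% lower). The median was -0.00, and 45 of 91 members were above 0. Higher were Cox6b2 (0.44), Atp5g1, Ndufb6 (0.13), Atp5b (0.10) and Sdha (0.08). Complex I held 9 of the 15 lower members, among them Ndufs3 (-0.18), Ndufaf8 (-0.26), an assembly factor, and Ndufs4 (-0.15), a subunit whose loss causes Leigh syndrome. In complex III, Uqcrb (-0.23) and Uqcrq (-0.12) were lower, 2 small subunits next to the ubiquinone sites. Uqcrb had a lowest, median and highest library of 66.15, 74.87 and 84.74 CPM in WT and of 61.80, 63.24 and 74.08 CPM in zQ175, which overlap. The remaining lower members were Cox4i2 and Cox6a2 in complex IV and Atp5g2 (-0.09) and Atp5l (-0.11) in complex V.

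The 3 genotype effects were then set against each other in 1 fit of all libraries. No member's effect differed between strategies at an adjusted p under 0.05, against 0.835% of all genes for 6[4]10 minus 2[4]6, 0.0675% for 2+6[8]10 minus 2[4]6 and 0.0123% for 2+6[8]10 minus 6[4]10. At an unadjusted p under 0.05 in edgeR, 16 members had a higher effect in 6[4]10 than in 2[4]6 and none a lower one, against 9.07% of all genes higher and 6.97% lower. At the same threshold 22 had a lower effect in 2+6[8]10 than in 6[4]10 and none a higher one, against 2.83% and 2.58% of all genes. Both use the library that stands apart, and without it the counts were 2 and 4. With the slopes in the fit they were 2 and 0. Atp5g1 came nearest, with a difference of 0.18 (SE 0.056) between 6[4]10 and 2[4]6 and an adjusted p of 0.0775, or 0.13 (adjusted p 0.335) without that library. The strategies also differ in cohort, which cannot be told apart from age where 2[4]6 is set against either of the others.

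Among animals given NTC, zQ175 had lower levels of more members than it had higher. In 2[4]6 1 member was higher and 23 lower of 91, against 34.4% of all genes called (15.9% higher and 18.5% lower), and 75 of 91 were below 0 with a median of -0.07. Of the 12 widespread subunits of complex IV, 5 were lower there and all 12 below 0, among them Cox7c (-0.17), Cox8a (-0.14) and Cox5b (-0.12). Complex I had 14 of 44 lower, among them Ndufs3 (-0.28), Ndufb4 (-0.25) and Ndufa1 (-0.24). In 6[4]10 4 were higher and 13 lower of 90, against 32.8% of all genes called (16.8% higher and 15.9% lower), and 70 of 90 were below 0. Higher there were Cox6b2 (0.60), Atp5g1 (0.27), Ndufaf7 (0.11), a methyltransferase that acts in complex I assembly, and Sdha (0.10). In 2+6[8]10 3 were higher and 23 lower of 91, against 42.1% of all genes called (20.7% higher and 21.4% lower). Atp5g1 (0.19), Sdha (0.11) and Atp5b (0.09) were the 3 higher ones, and the lower ones included Cox4i2 (-0.57), Cox6a2 (-0.52), Ndufs3 (-0.25) and Ndufa7 (-0.23). The counts of lower members ran from 10 to 28, 6 to 17 and 13 to 24 in the 3 strategies when each replicate number was left out in turn. The replicate block gave 37 lower in 2[4]6, and with the slopes in the fit 3 were higher and 53 lower, 9 and 20, and 9 and 18.

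Among animals given HTT-10150, lower members outnumbered higher ones in 2[4]6 and higher ones lower ones in 2+6[8]10. This order depended on the analysis: with the slopes in the fit, lower members outnumbered higher ones in all 3 strategies, with 3 higher and 25 lower in 2[4]6, 9 and 20 in 6[4]10, and 7 and 11 in 2+6[8]10. Without the slopes, in 2[4]6 1 member was higher and 14 lower in zQ175, against 33.5% of all genes called (16.1% higher and 17.4% lower). The lower ones included Cox4i2 (-0.55), Ndufaf8 (-0.26), Ndufs3 (-0.22), Ndufb10 (-0.18), Cox8a (-0.16) and Sdhb (-0.09), the iron-sulfur subunit of complex II. In 6[4]10 6 were higher and 6 lower, against 34.7% of all genes (17.8% higher and 16.9% lower), with Atp5g1 (0.23), Ndufb6 (0.17), Sdha (0.12), Ndufv3 (0.12), Atp5b (0.09) and Ndufs1 (0.09), the largest core subunit of complex I, higher. In 2+6[8]10 11 were higher and 2 lower, against 36.2% of all genes (17.5% higher and 18.7% lower). The 2 lower were Cox4i2 (-0.71) and Ndufs3 (-0.18), and 8 of the 11 higher ones belong to complex I, with Ndufaf6 (0.28) and Ndufb6 (0.22) foremost.

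Atp5g1 encodes the c subunit of the ATP synthase rotor. In untreated 6[4]10 its level had a lowest, median and highest library of 100.5, 106.3 and 113.2 CPM in WT and of 127.1, 131.7 and 175.0 CPM in zQ175. These groups did not overlap, and neither did those of untreated 2+6[8]10, with 99.02, 102.9 and 111.4 CPM in WT and 114.1, 123.97 and 131.8 CPM in zQ175. In untreated 2[4]6 they overlapped, with 101.1, 117.3 and 124.5 CPM in WT and 116.9, 133.7 and 147.6 CPM in zQ175. Of all genes tested, 8.83% and 9.22% did not overlap between the untreated groups of 6[4]10 and 2+6[8]10. The log2 fold changes of Atp5g1 in untreated animals were 0.19 (SE 0.043, adjusted p 0.00049) in 2[4]6, 0.38 (SE 0.042, adjusted p 6.47e-10) in 6[4]10 and 0.24 (SE 0.032, adjusted p 2.08e-08) in 2+6[8]10. Without the library that stands apart the 6[4]10 value was 0.32. With NTC the fold changes were 0.18, 0.27 and 0.19 in the same order, with adjusted p of 0.000867, 1.51e-06 and 1.65e-06. With HTT-10150 they were 0.15, 0.23 and 0.29, with adjusted p of 0.00707, 2.94e-05 and 7.2e-10.

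Mice have 3 genes for this subunit, whose mature proteins are the same and whose import sequences differ. Atp5g3 was the most abundant per length at 635.8 ± 37.4 TPM, followed by Atp5g1 at 328.5 ± 54.6 and Atp5g2 at 274.8 ± 19.1 TPM. Atp5g3 was called in 1 of the 9 comparisons, untreated 6[4]10, at 0.11 (adjusted p 0.0403), which was 0.06 (adjusted p 0.193) without the library that stands apart. Atp5g2 was called lower in 3, untreated 2+6[8]10 (-0.09), NTC 2[4]6 (-0.13) and NTC 2+6[8]10 (-0.10). In untreated 6[4]10 Atp5g2 had medians of 92.08 CPM in WT and 92.64 CPM in zQ175, within overlapping ranges. The difference between the 3 genes was not tested.

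**Figure D3:**
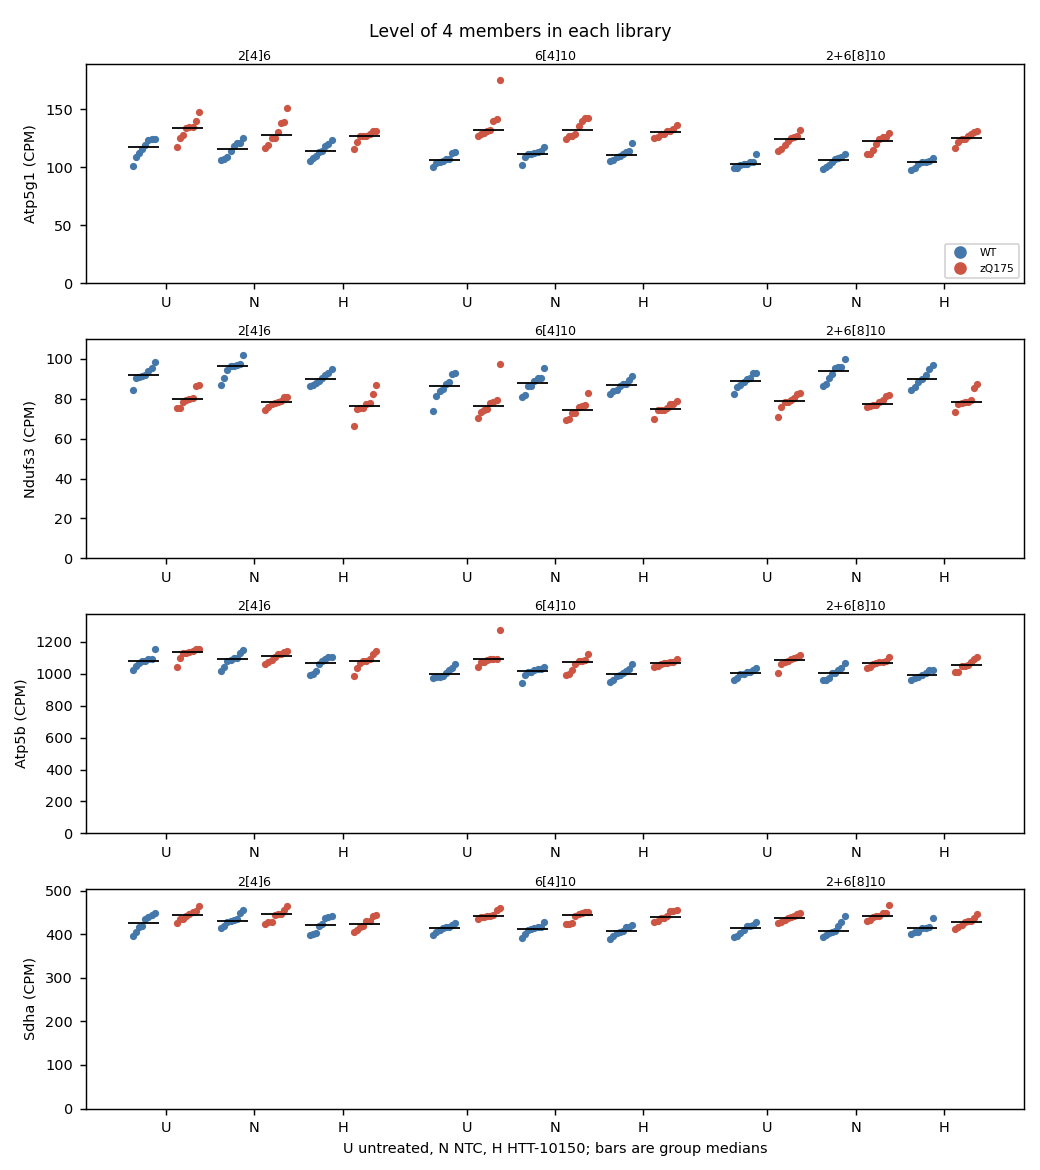
CPM (vertical axis) of Atp5g1, Ndufs3, Atp5b and Sdha in every library, by strategy, treatment (U untreated, N NTC, H HTT-10150) and genotype; points are libraries ordered by value within a group and bars are group medians. Atp5g1 medians of zQ175 lie above and Ndufs3 medians below those of WT in all 9 pairs of groups, and the highest Atp5g1 point, at 175.0 CPM, is the untreated zQ175 male 2 of 6[4]10.

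Ndufs3 encodes a core subunit of the arm of complex I that reaches into the matrix. In NTC 2[4]6 its lowest, median and highest library were 86.67, 96.35 and 101.9 CPM in WT and 74.52, 78.12 and 80.79 CPM in zQ175. These did not overlap, nor did those of NTC 2+6[8]10 (86.59, 93.93 and 99.76 CPM against 75.77, 77.61 and 81.71 CPM) or HTT-10150 6[4]10 (82.49, 87.05 and 91.19 CPM against 69.79, 74.94 and 78.64 CPM). The other 6 pairs of groups overlapped. Of all genes tested, 8.08%, 12.3% and 9.33% did not overlap in NTC 2[4]6, NTC 2+6[8]10 and HTT-10150 6[4]10. The log2 fold changes of Ndufs3 were -0.20 (SE 0.037, adjusted p 3.05e-05), -0.12 (SE 0.043, adjusted p 0.0209) and -0.18 (SE 0.034, adjusted p 2.12e-05) in untreated 2[4]6, 6[4]10 and 2+6[8]10. With NTC they were -0.28, -0.22 and -0.25, and with HTT-10150 -0.22, -0.20 and -0.18. Without the library that stands apart the untreated 6[4]10 value was -0.17. Ndufs3 overlaps the antisense gene Kbtbd4, and whether the counting used strand is not given in the sources used here, so reads of the 2 genes may not be told apart. Kbtbd4 averaged 26.8 CPM and was not called in any of the 9 comparisons, with fold changes from -0.12 to 0.05.

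Ndufb6, an accessory subunit of the membrane arm of complex I, was higher in zQ175 in 5 of the 9 comparisons. In untreated 6[4]10 it had a lowest, median and highest library of 34.26, 36.35 and 40.08 CPM in WT and of 38.53, 41.83 and 57.47 CPM in zQ175. The groups overlapped there and in the other untreated strategies, where the medians were 35.79 and 40.82 CPM in 2[4]6 and 34.65 and 36.98 CPM in 2+6[8]10. Its fold changes in untreated animals were 0.13 (adjusted p 0.0287), 0.26 (adjusted p 0.000129) and 0.13 (adjusted p 0.0236), and the second was 0.18 without the library that stands apart. Its expected counts were not whole numbers in 97.9% of libraries, so that some reads were divided between it and other loci, and its exons overlap Smim27, which averaged 1.28 CPM.

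Sdha and Atp5b, the catalytic subunits of complexes II and V, were each higher in zQ175 in 5 of the 9 comparisons and lower in none. Sdha in untreated 6[4]10 had 398.9, 415.2 and 425.4 CPM in WT and 434.4, 442.2 and 460.1 CPM in zQ175 for the lowest, median and highest library. These groups did not overlap, as was the case for 8.83% of all genes tested. Its fold changes in 6[4]10 were 0.11, 0.10 and 0.12 without treatment, with NTC and with HTT-10150, with adjusted p of 8.61e-05, 0.00032 and 1.43e-05. At 6 months of age the values for Sdha were 0.06, 0.03 and 0.02 and did not pass. Atp5b in untreated 2+6[8]10 had 962.4, 1005 and 1034 CPM in WT and 1002, 1086 and 1117 CPM in zQ175, which overlap, with a fold change of 0.10 (SE 0.022, adjusted p 0.000387). The remaining members of complex II showed less: Sdhb was called in 1 comparison, Sdhd in 1 (0.14 in untreated 6[4]10) and Sdhc in none. Uqcrc1, a core protein of complex III, and Cox4i1 were not called in any of the 9, with values of Uqcrc1 from -0.05 to 0.07 and of Cox4i1 from -0.11 to 0.11.

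The low-abundance isoforms of complex IV had the largest fold changes of the members. Cox4i2, the isoform of subunit 4 best known from lung and from low-oxygen conditions, fell in 7 of the 9 comparisons. In NTC 2+6[8]10 its lowest, median and highest library were 1.90, 2.22 and 2.56 CPM in WT and 0.91, 1.51 and 1.85 CPM in zQ175, without overlap. In untreated 6[4]10 they were 1.86, 2.30 and 3.37 CPM against 0.91, 1.78 and 2.19 CPM, which overlap. Of all genes tested, 12.3% did not overlap between the genotypes in NTC 2+6[8]10. The fold changes of Cox4i2 in untreated animals were -0.33 (SE 0.128, adjusted p 0.0448), -0.55 (SE 0.140, adjusted p 0.00157) and -0.34 (SE 0.139, adjusted p 0.0471). In the alternative analyses the first was called in 5 of 12, the second in 13 of 13 and the third in 3 of 12. Several markers of mural cells, the pericytes and smooth muscle cells of vessels, were lower as well. Counts called lower were 7, 3 and 5 of 8 in untreated 2[4]6, 6[4]10 and 2+6[8]10, against 17.2%, 17% and 18.3% of all genes. The summed level of the mural markers ranged from 183.9 to 223.2 CPM over the untreated WT libraries and from 153.6 to 207.1 CPM over the untreated zQ175 libraries. Endothelial markers were called lower in 7, 7 and 5 of 8. The part of these markers in the result was not tested.

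Cox6b2, the testis isoform of subunit 6b, was higher in zQ175 in 4 of the 9 comparisons. In untreated 2+6[8]10 it had 1.41, 1.93 and 2.70 CPM in WT and 1.90, 2.84 and 4.04 CPM in zQ175, with overlap. Its fold changes in untreated animals were 0.44 (adjusted p 0.0682), 0.43 (adjusted p 0.0279) and 0.44 (adjusted p 0.0363), and without the library that stands apart the second had an adjusted p of 0.06. Cox6a2, the heart and skeletal muscle isoform of subunit 6a, was lower in 4, with -0.34 (adjusted p 0.0122) in untreated 2+6[8]10, -0.51 and -0.52 with NTC in 6[4]10 and 2+6[8]10, and -0.42 with HTT-10150 in 6[4]10. With NTC in 6[4]10 its libraries ranged from 4.03 to 5.93 CPM in WT and from 2.58 to 4.10 CPM in zQ175, with overlap. Ndufa4l2, a paralog of the complex IV subunit Ndufa4 that is known to respond to low oxygen, was lower in untreated 6[4]10 at -0.37 (adjusted p 0.044). Its exons overlap Shmt2, which was called higher in all 9 comparisons. Cox7a1 and Cox8b, the heart isoforms, were called in none.

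**Figure D4:**
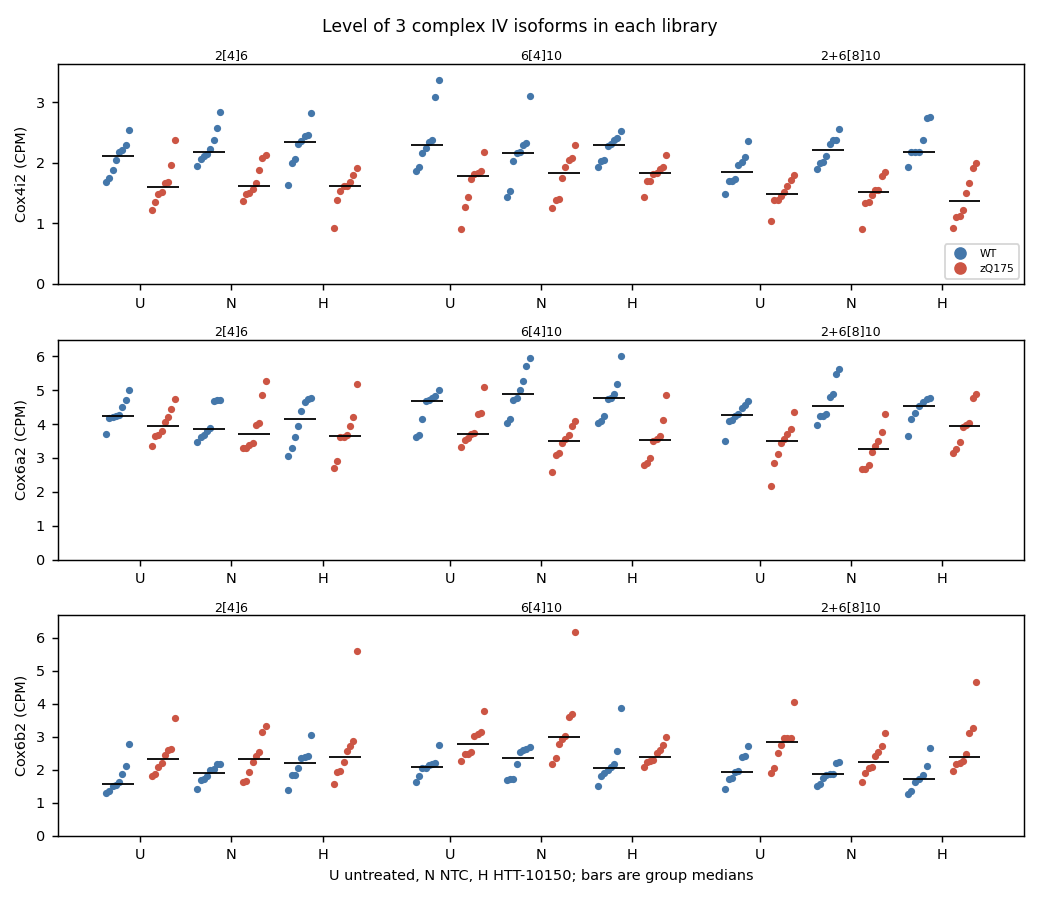
CPM (vertical axis) of low-abundance isoforms of complex IV in every library, by strategy, treatment (U untreated, N NTC, H HTT-10150) and genotype; points are libraries and bars are group medians. Cox4i2 medians are below those of WT in zQ175 in all 9 pairs of groups, and the Cox4i2 ranges overlap in all pairs except NTC 2+6[8]10.

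The widespread partners of these isoforms changed less. Of the 9 comparisons, Cox6a1 was called in untreated 6[4]10 alone (0.19, adjusted p 0.036), and so were Cox6b1 (0.16, adjusted p 0.0104) and Cox6c (0.14, adjusted p 0.019). Without the library that stands apart none of the 3 was called there, with 0.08 (adjusted p 0.252), 0.09 (adjusted p 0.0686) and 0.09 (adjusted p 0.0956). Cox7a2 fell in NTC 6[4]10 (-0.20, adjusted p 0.00255), and Ndufa4 in NTC 2[4]6 (-0.11, adjusted p 0.0468). Cox8a fell in NTC 2[4]6, NTC 2+6[8]10 and HTT-10150 2[4]6, at -0.14, -0.12 and -0.16.

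Several accessory subunits and assembly factors of complexes I and III were lower in zQ175 in more than 1 treatment. Ndufaf8 was lower in 6 of 9 comparisons, with -0.26 (adjusted p 0.000423) in untreated 2+6[8]10 and -0.32 in both NTC and HTT-10150 6[4]10. In untreated 2+6[8]10 its libraries had 8.72, 9.54 and 11.17 CPM in WT and 7.23, 8.26 and 9.06 CPM in zQ175, with overlap. Ndufa5, Ndufb4, Ndufb10, Uqcrb and Uqcrq were lower in 5 each. For Ndufb4 the counts are uncertain: the processed pseudogene Ndufb4c averaged 24.0 CPM, and the counts of both were not whole numbers in all libraries. Exons of 32 of the 93 members overlap another annotated gene. Ndufaf7 (higher in 3) is an assembly factor that went the other way, with 0.18 (adjusted p 0.000473) in untreated 6[4]10 and 0.15 there without the library that stands apart.

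HTT-10150 was compared with NTC within each genotype. In zQ175 8 members were higher with HTT-10150 in 2+6[8]10 and none lower of 91, against 3.16% of all genes called (1.1% higher and 2.06% lower). The median of the members was 0.09, and 81 of 91 were above 0. The 8 were Ndufa7 (0.19), Ndufv3 (0.15), Ndufb11 (0.15) and Ndufb3 (0.13) of complex I, Uqcrq (0.13) of complex III, Cox7c (0.15) and the supercomplex factor Cox7a2l (0.11) counted with complex IV, and Atp5g2 (0.12) of complex V. Ndufa7 had a lowest, median and highest library of 38.17, 41.81 and 45.54 CPM with NTC and of 42.85, 48.33 and 51.84 CPM with HTT-10150, with overlap. In WT NTC of the same strategy Ndufa7 had 45.28, 48.66 and 53.49 CPM. Its fold change had an SE of 0.042 and an adjusted p of 0.00695, and the other 7 had adjusted p from 0.0225 to 0.0483. Leaving out each replicate number in turn gave between 0 and 9 members, and adding each library's length and GC slopes to the fit gave 0 with a median of 0.02.

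In the other comparisons of the siRNA no member was called by edgeR, and DESeq2 also called 0 in each. For zQ175 in 2[4]6 and 6[4]10 none of all genes was called either (0% in each), and 2 and 1 members had an unadjusted p under 0.05 in edgeR, all lower, against 2.09% and 2.32% of all genes lower. In WT the shares of all genes called were 0.00636%, 0% and 0.0129% in 2[4]6, 6[4]10 and 2+6[8]10, and 9, 4 and 2 members had an unadjusted p under 0.05, against 5.93%, 3.28% and 5.24% of all genes. Whether HTT-10150 acted differently in zQ175 and WT was tested as an interaction, which was called for no member, against 0%, 0% and 0.529% of all genes. In 2+6[8]10 16 members had an unadjusted p under 0.05 for the interaction, all higher, against 6.03% of all genes higher and 6.18% lower, and its median was 0.08. With the slopes in the fit 5 were higher and 1 lower at that threshold, with a median of 0.01. In 2[4]6 the interaction had 0 members at that threshold without the slopes. With them 10 were higher and 0 lower, against 2.28% and 1.85% of all genes. The fit with the slopes in 2[4]6 also gave 14 members higher with HTT-10150 in zQ175 and 0 lower, against 2.45% and 1.79% of all genes. In WT of 2[4]6 it gave 0 higher and 3 lower.

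NTC against untreated animals gave no called member in either genotype, by edgeR or by DESeq2. The share of all genes called was 0% except for WT in 2+6[8]10, with 0.181%. In zQ175 of 6[4]10 the members' median was -0.09, 87 of 90 were below 0 and 36 were lower at an unadjusted p under 0.05 in edgeR, against 3.88% of all genes lower. Without the library that stands apart, which is in the untreated group, 13 were lower and 1 higher and the median was -0.03, and with the slopes in the fit 1 was lower. In zQ175 of 2[4]6 17 were lower at that threshold, against 2.67% of all genes, with a median of -0.05. With the slopes in the fit 30 were lower and 1 higher there, against 3.72% and 3.06% of all genes.

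Untreated WT mice of the 3 strategies were compared as a measure of age and cohort. Against 2[4]6, 15 of 91 members were lower and none higher in 6[4]10, with 16.4% of all genes called (7.68% higher and 8.68% lower). Sdhd (-0.20), Ndufc1 (-0.17), Ndufs6 (-0.17) and Uqcrfs1 (-0.17) had the largest decreases. In 2+6[8]10 9 were lower and none higher than in 2[4]6, with 7.57% of all genes called (3.51% higher and 4.06% lower), led by Atp5d (-0.19), Atp5o (-0.16), Atp5g1 (-0.14) and Ndufv1 (-0.14). Between the strategies of the same age, 2+6[8]10 had 1 member higher, Ndufb11 (0.20), and 3 lower, Atp5d (-0.15), Ndufv1 (-0.14) and Ndufb2 (-0.14), than 6[4]10, with 9.09% of all genes called. Age and cohort cannot be told apart in the first 2 comparisons, and the third compares cohorts at a single age.

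Males and females were compared within each strategy. In 2[4]6 12 members were higher and 3 lower in males than in females, against 16.6% of all genes called (8.44% higher and 8.19% lower). The largest were Ndufs7 (0.22), Cox4i1 (0.15), Ndufv1 (0.13) and Atp5g2 (0.11) upward, and Ndufs4 (-0.18), Uqcrb (-0.11) and Cox7b (-0.09) downward. Those named upward had a GC content of 59.6, 58.0, 56.7 and 63.3% in that order, and those named downward 43.1, 40.4 and 42.0%. At an unadjusted p under 0.05 in edgeR, 21 members were higher and 12 lower, against 31.5% of all genes. With the slopes on length and GC content, described further down, in the fit, 7 were higher and 10 lower, against 18.7%. The part of GC content in the sex difference was not tested beyond that fit. In 6[4]10 and 2+6[8]10 1 member was called in each, against 2.21% and 2.1% of all genes. This was Cox7a2l, which helps assemble complexes III and IV into supercomplexes, and it was higher in males in all 3 strategies, at 0.09 (adjusted p 0.000627), 0.09 (adjusted p 0.0252) and 0.07 (adjusted p 0.0236). The difference between strategies was not tested for sex.

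The members' summed level moved with a length slope computed from the other genes of each library. The members are short transcripts, with a median longest transcript of 1082 bases against 3284 bases for all genes tested. For each library the slope of all other genes' levels on log2 transcript length was computed, fitted together with GC content. A negative slope means that short transcripts were relatively more abundant in that library. The other genes include many that differ by genotype, so the slope may itself carry effects of genotype or treatment. A fit with the slopes may then take away such effects too, which was not tested. Across libraries the members' summed CPM and this slope had a Pearson r of -0.81 in 2[4]6 (n = 48), -0.93 in 6[4]10 (n = 48) and -0.79 in 2+6[8]10 (n = 47), with Spearman rho of -0.77, -0.76 and -0.73. Each had a permutation p of 1e-05, the smallest that 100000 resamples can give, and the same after adjustment over the 3. The shuffling was done within a strategy and kept neither groups nor sex. Since the members are short, a negative r is in part built into the slope, and equally short other genes were not compared. The p therefore shows nothing particular to the members. Without the 2 libraries farthest from the median slope, r was -0.83, -0.84 and -0.73. The untreated zQ175 male 2 of 6[4]10 had the lowest slope, -0.162. The mean slope was -0.023 ± 0.021 (SD, n = 8) in zQ175 HTT-10150 of 2+6[8]10 and 0.014 ± 0.016 (SD, n = 8) in zQ175 NTC of that strategy. These are the groups between which 8 members differed, and the part of the slope in that difference was not tested beyond the fit with the slopes. With both slopes in the fit of untreated 6[4]10, 10 of the 37 members called without the slopes were still called. Atp5g1 was called in every alternative analysis of all 9 comparisons, this one included, and Ndufs3 in every one except 4 of the 13 of untreated 6[4]10, which were those without replicate 1, 3 or 4 and the fit of the 2 groups alone.

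**Figure D5:**
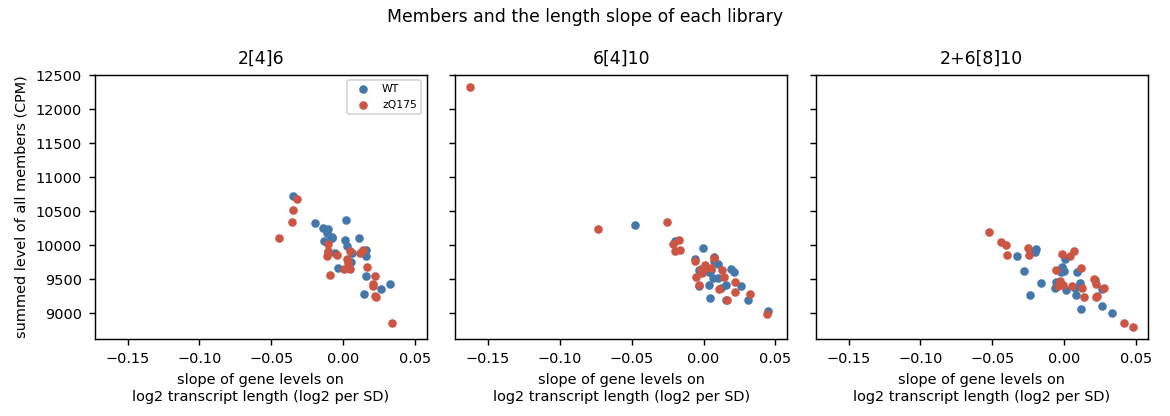
Summed CPM of all members (vertical axis) against the slope of gene levels on log2 transcript length (horizontal axis, log2 per SD), 1 point per library and 1 panel per strategy. Libraries with a lower slope have a higher sum in each panel, with r of -0.81, -0.93 and -0.79, and the point at 12340 CPM is the untreated zQ175 male 2 of 6[4]10.

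Other genes of mitochondrial energy metabolism were read from lists of the same pathway. In untreated 2[4]6, 6[4]10 and 2+6[8]10, 15.3%, 19.2% and 17.1% of all genes were called higher and 17.2%, 17% and 18.3% lower, and a list's count near these shares is not a result about the list. The 13 subunits encoded in mitochondrial DNA were never higher in zQ175: 0, 2 and 7 were lower in untreated 2[4]6, 6[4]10 and 2+6[8]10, and 3, 10 and 6 with NTC. With HTT-10150 4, 9 and 2 of the 13 were lower. Their medians in untreated animals were -0.06, -0.07 and -0.14. mt-Nd2, a core subunit of complex I, had -0.18 (adjusted p 0.0796), -0.19 (adjusted p 0.00118) and -0.29 (adjusted p 2.35e-07). With the slopes in the fit 13, 9 and 8 of them were lower in untreated animals. The libraries were made with poly(A) selection, which mitochondrial transcripts pass by their short tails.

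The tricarboxylic acid cycle and pyruvate dehydrogenase list of 19 genes had 5 higher and 1 lower in untreated 2[4]6, 8 and 0 in 6[4]10, and 7 and 3 in 2+6[8]10, that is 26.3%, 42.1% and 36.8% higher. Idh3a, a subunit of the NAD-dependent isocitrate dehydrogenase, was higher in all 3, with 0.18, 0.29 and 0.23, and Pdha1, a subunit of pyruvate dehydrogenase, with 0.13, 0.21 and 0.20. Glycolysis had 2 higher and 4 lower of 17, then 10 and 1, then 7 and 2, that is 11.8%, 58.8% and 41.2% higher. Gpi1, the glucose phosphate isomerase, was at 0.31 in 6[4]10 and 0.27 in 2+6[8]10, and Aldoc, the brain aldolase, was lower at -0.28, -0.19 and -0.29. Assembly factors outside the members had 4 higher and 5 lower of 38, then 11 and 3, then 3 and 4, with 28.9% higher in the second and 7.89% in the third. Among 16 genes of mitochondrial mass, import and channels the counts were 1 and 2, then 7 and 2, then 3 and 2, that is 6.25%, 43.8% and 18.8% higher, with the import receptors Tomm70a (-0.27, -0.32 and -0.29) and Tomm20 (-0.16, -0.14 and -0.12) lower and the channel Vdac3 (0.17, 0.19 and 0.16) higher. Of 16 regulators of mitochondrial biogenesis, Ppargc1b was lower in all 3, at -0.33, -0.44 and -0.35, while Nrf1, Gabpa and Tfam were not called in any of them. Without the library that stands apart the higher counts in untreated 6[4]10 were 6 for the tricarboxylic acid cycle, 10 for glycolysis, 7 for assembly factors and 4 for mass, import and channels, and with the slopes in the fit 5, 8, 4 and 2. These 2 analyses of the lists, and those of counts at an unadjusted p, were chosen after seeing the data.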

How the data were processed

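Striatal RNA was extracted with a Qiagen RNeasy kit and libraries were made with poly(A) selection, per the labels' protocols. The authors deposited expected counts per gene, estimated with RSEM on GRCm38 per the submitters' processing notes, and a second table whose deposited columns all sum to the same total, that of TPM, and were read as TPM. The RSEM version, the annotation and whether counting used strand were not given in the sources used here. Expected counts were rounded to whole numbers. Each strategy was fitted on its own with edgeR 4.0.16 (R 4.3.3; filterByExpr, TMM, robust quasi-likelihood F test) over its 6 groups with sex as a covariate, which tested 15716, 15757 and 15506 genes in 2[4]6, 6[4]10 and 2+6[8]10. Comparisons between strategies and CPM levels used 1 fit of all 143 libraries. Benjamini-Hochberg adjustment ran over all genes tested, with a threshold of 0.05, and SE is the absolute fold change over the square root of F. TPM served only for levels between genes. Alternatives used DESeq2 1.42.0, other filters, covariates and left-out libraries. The fit was tested on simulated data. Transcript lengths and overlaps came from GENCODE on GRCm38, promoters from RefSeq. The slope used log2 CPM with a prior count of 2. Members and lists were chosen with earlier results of these data known. Named members are 13 entry points of the complexes, the isoform pairs, and in each comparison the 4 largest changes among those called in each direction, together with members called alike in all untreated comparisons. Ndufaf8, Uqcrb, Ndufa5, Ndufs4, Atp5l and other members named beyond this were chosen after their values were seen.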

Additional observations from a re-analysis of the deposited data

Results flagged for a closer look

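Within each group of 7 or 8 libraries, the highest and lowest library of each summed level and of 4 members were tested for their distance from the others with Dixon's test at the 95% level. Of 180 tests, each measure in each group, 13 found such a library, and chance alone gives about 1 in 20 of independent tests. These tests are not independent, since the measures share members and most of the 13 are of 1 library. The 2 rates are therefore not to be compared. In untreated zQ175 of 6[4]10, male 2 was the highest library for complex I at 3455 CPM (next 2831 CPM), complex II at 733.6 CPM (next 682.6 CPM), complex IV at 2788 CPM (next 2249 CPM), complex V at 4384 CPM (next 3725 CPM) and all members at 12340 CPM (next 10350 CPM). The same library was highest for Atp5g1 at 175.0 CPM (next 141.2 CPM), for Ndufs3 at 97.49 CPM (next 79.59 CPM) and for Ndufb6 at 57.47 CPM (next 44.35 CPM). Ndufs3 was thus high in that library although it was called lower in its group.

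Other libraries were set apart in a single measure. Complex II was lowest in untreated zQ175 female 3 of 2+6[8]10, at 630.0 CPM (next 660.5 CPM). Complex IV was highest in untreated WT male 1 of 6[4]10, at 2156 CPM (next 2026 CPM). Atp5g1 was highest in untreated WT male 3 of 2+6[8]10, at 111.4 CPM (next 104.6 CPM). Ndufb6 was highest in untreated zQ175 male 3 of 2+6[8]10, at 44.24 CPM (next 39.46 CPM), and in untreated WT female 3 of 2[4]6, at 43.74 CPM (next 37.27 CPM). The processed pseudogene Ndufb4c, which is no member, had a mean of 453.4 counts per library, between 251 and 734.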

How the results depend on the processing

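Numbers of members called are given as the value in the report, then under the alternative; U, N and H stand for the genotype comparison in untreated, NTC and HTT-10150 animals, and A, B and C for 2[4]6, 6[4]10 and 2+6[8]10. An adjusted p under 0.01 changed higher U A from 5 to 2 and lower from 4 to 1, lower N A from 23 to 14, lower H A from 14 to 7, sex A from 15 to 6, higher U B from 34 to 18 and lower from 3 to 1, lower N B from 13 to 8, higher H B from 6 to 3, sex B from 1 to 0, higher U C from 5 to 3 and lower from 15 to 7, lower N C from 23 to 15, higher H C from 11 to 5, sex C from 1 to 0, HTT-10150 against NTC in zQ175 C from 8 to 1, and untreated WT B against A from 15 to 9, C against A from 9 to 2 and C against B from 4 to 2. With each library's length and GC slopes as covariates, lower U A became 18 instead of 4, N A 3 higher and 53 lower, H A 3 higher and 25 lower, sex A 5, U B 8 higher and 9 lower, N B 9 higher and 20 lower, lower H B 20, sex B 4, higher U C 9, higher N C 9, H C 7 higher and 11 lower, sex C 4, and HTT-10150 against NTC in zQ175 C 0. Among named members called with or without these slopes, 3 values changed sign: Ndufv1 in U A to 0.08078, Ndufa4 in U A to -0.0833 and Cox5a in U B to -0.01165. Over all members, called or not, many more signs changed. Members above 0 went from 81 to 40 of 90 in U B and from 51 to 34 of 91 in U A.

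DESeq2 gave 2 higher N A, 5 higher N C, 2 for sex B and 13 for HTT-10150 against NTC in zQ175 C. DESeq2's size factors in edgeR gave 2 higher H A and 5 higher N C. The single fit of all libraries gave 8 higher U A, 2 higher H A, 7 higher H C and 1 for HTT-10150 in zQ175 C. No filter on low counts gave 1 lower U A, 15 lower N A, 9 lower H A and 3 for HTT-10150 in zQ175 C. No sex term gave 3 higher U A and 4 lower H C. Fits of the 2 groups alone gave 1 lower U A, 20 higher and 1 lower U B, 11 lower H B, 5 higher N C and 5 for HTT-10150 in zQ175 C. Without the untreated zQ175 male 2 of 6[4]10, chosen after seeing the data, higher U B was 17, H B 10 higher and 10 lower, and sex B 3.

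Leaving out each replicate number in turn gave 1 to 5 higher and 1 to 2 lower in U A, 10 to 28 lower in N A, 1 to 2 higher and 5 to 13 lower in H A, 2 to 24 for sex A, 11 to 39 higher and 1 to 4 lower in U B, 6 to 17 lower in N B, 3 to 6 higher in H B, 0 to 3 for sex B, 3 to 5 higher and 6 to 12 lower in U C, 3 to 5 higher and 13 to 24 lower in N C, 5 to 9 higher and 2 to 5 lower in H C, 0 to 2 for sex C, 0 to 9 for HTT-10150 in zQ175 C, 4 to 18 for untreated WT B against A, 0 to 11 for C against A and 2 for C against B.

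With the replicate block, U A had 8 higher and 9 lower, N A 37 lower, and H A 3 higher and 22 lower; the replicate numbers do not mark pairs in the labels. Libraries with the same number had a mean correlation of 0.03, -0.00 and -0.01 of their deviations from the group means in A, B and C, and 4 of 48, 11 of 48 and 5 of 47 libraries correlated best with their own number. The cause of these shifts was not tested. With 8 mice a group and effects mostly under 0.2 on the log2 scale, many members lie near the threshold, and a member not called here may still differ. Among the low-abundance isoforms tested in any strategy, counts averaged from 8.85 for Cox8b and 10.9 for Cox7a1 to 75.96 for Cox6a2 per library, which limits their precision.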

Other observations

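Markers of other cell types were read from the same untreated comparisons of zQ175 with WT. In 2[4]6, 6[4]10 and 2+6[8]10, 17.2%, 17% and 18.3% of all genes were called lower and 15.3%, 19.2% and 17.1% higher. A count of markers near these shares is not a result about the markers. Of 8 astrocyte markers 4, 5 and 5 were called lower and 1 higher in 2[4]6, 6[4]10 and 2+6[8]10. Microglial markers were lower in 4, 2 and 1 of 8, oligodendrocyte markers in 3, 3 and 4 of 8, interneuron markers in 5 of 8 in each strategy, and precursor markers in 1 of 4 in each, with none higher. Of 8 cortical or thalamic neuron markers 1 was higher in each strategy and 0, 1 and 1 lower. None of 6 choroid plexus and ependymal markers was called by edgeR in untreated animals, and 0 had an unadjusted p under 0.05. The part of these markers in the levels of the respiratory chain members was not tested.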
